A study of Homo sapiens with 8 samples.

Results

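The expression of 30 genes of cholesterol and fatty acid synthesis was followed in 2D human intestinal epithelial cells (hIECs). The genes were taken by name from the textbook pathways, with earlier results of these data known. Of these, 18 belong to the cholesterol arm, from ACAT2 to DHCR7, and 4 to regulation and sterol transport (SREBF1, SREBF2, INSIG1 and STARD4). The other 8 belong to the fatty acid arm, from ACLY to FADS2. Together the genes were 30 of the 60558 genes with a value. All 30 passed the filter on low values that left 14206 genes to test. The cells came from H9, an established line of human embryonic stem cells, so every library shares 1 genetic background. There were 8 RNA-seq libraries, 2 in each of 4 groups. Normal hIECs, the control without treatment, and inflamed hIECs, kept for 10 days in IFNγ (50 ng/ml) together with TNFα (50 ng/ml), were each grown with or without PM10, particulate matter given at 100 µg/ml over the last 7 days. The labels give a treatment of 10 days in all 4 groups and do not say whether the 2 libraries of a group came from separate cultures, so the p-values measure the spread between these libraries, which may be technical. The comparisons ask how the pathway responds to the cytokines, how it responds to PM10, and whether the second response depends on the first.

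Cells build cholesterol from acetyl-CoA through mevalonate, isoprenoid diphosphates, squalene and lanosterol, and fatty acids from acetyl-CoA through malonyl-CoA, with elongases and desaturases shaping the finished chains. Both arms are controlled by the SREBP transcription factors, encoded by SREBF1 and SREBF2. These proteins wait in the endoplasmic reticulum bound to the sterol sensor SCAP, are held there by INSIG proteins when sterols are plentiful, and travel to the Golgi for cleavage when sterols run low. SREBP-2 mainly drives sterol genes, and the SREBP-1c form from SREBF1 mainly drives fatty acid genes. The small intestine both absorbs and synthesizes cholesterol.

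Values are FPKM, a fragment count per kilobase that corrects for transcript length and sequencing depth, and they were compared as log2(FPKM + 1) in a limma fit to all 8 libraries. A gene was called when its adjusted p-value, by the Benjamini-Hochberg method over all 14206 genes, was under 0.05. No read counts were used. If the lowest value above 0 in a library is taken as a mean depth of 1, an FPKM of 1 stood for a mean depth between 4.38 and 6.11. Whether that lowest value is a depth of 1 was not checked. The FPKM sum per library ranged from 403354 to 468392, and genes of mitochondrial DNA took 15.5% to 24.2% of it, with 17.02% and 24.2% in the 2 normal libraries. The cytokine labels held, as CXCL10, an interferon-induced chemokine, stood between 1.15 and 1.74 FPKM in the 4 libraries without cytokines and between 1254 and 1314 FPKM in the 4 with them. The cell type label held only in part. Of 15 intestinal epithelial markers, 9 were listed at 0 in all 8 libraries, among them CDX2, VIL1, MUC2 and LYZ, and EPCAM reached at most 0.62 FPKM. The keratins KRT8 and KRT18 stood at 100 to 383 FPKM, and 10 mesenchymal markers, with VIM and COL1A1 among them, summed to 4350 to 5731 FPKM. Adipocyte markers were listed at 0 in all libraries, and hepatocyte markers summed to at most 0.223 FPKM. In such bulk libraries, fewer cells of a type and less RNA per cell cannot be told apart.

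In normal hIECs all 30 genes were expressed, from 3.48 FPKM for HSD17B7, a sterol ketone reductase, to 57.8 FPKM for FDPS, which makes farnesyl diphosphate. FDPS, FDFT1 (squalene synthase, 46.5 FPKM) and ACLY (which makes cytosolic acetyl-CoA from citrate, 29.2 FPKM) had the highest levels. SREBF1 at 3.705 FPKM and ACACA, the carboxylase that makes malonyl-CoA, at 4.02 FPKM stood just above HSD17B7. ACACA differed widely between the 2 normal libraries, at 2.99 and 5.04 FPKM. The 30 genes together summed to 440 and 410 FPKM in normal hIECs and to 430 and 442 FPKM with PM10. They summed to 554 and 535 FPKM in inflamed hIECs and to 569 and 569 FPKM in inflamed hIECs with PM10. The 4 sums with cytokines were all above the 4 without them.

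**Figure D1:**
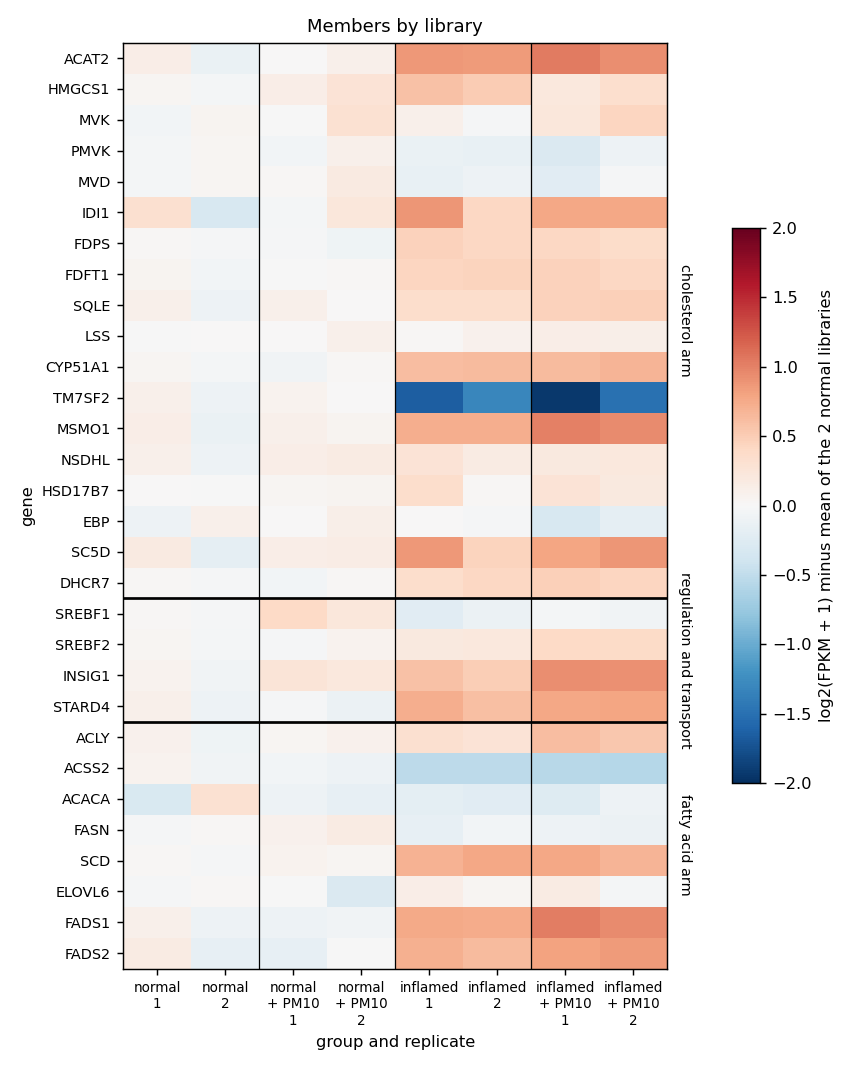
Each row is 1 of the 30 genes and each column 1 of the 8 libraries, with color giving log2(FPKM + 1) minus the mean of the 2 normal libraries. Most rows turned red in the 4 libraries with cytokines, while TM7SF2 and ACSS2 turned blue, and the columns with PM10 looked like their counterparts without it.

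The cytokines alone raised most of the pathway. In inflamed against normal hIECs, 17 of the 30 genes rose, 2 fell and 11 were not called, beside 25.9% of all tested genes called higher and 30.3% called lower. The median log2 fold change of the 30 genes was 0.33, against -0.03 over all genes tested. By arm, 10 of 18 cholesterol genes rose and 1 fell, 3 of the 4 regulation and transport genes rose, and 4 of 8 fatty acid genes rose and 1 fell. The changes were modest, and TM7SF2 was the 1 gene past a log2 fold change of 1 in either direction.

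Of the regulators, SREBF2 stood at 14.05 and 13.3 FPKM in normal hIECs and at 15.9 and 15.99 FPKM in inflamed hIECs. The inflamed libraries were both above the normal ones. Here and below, such separation adds little for a called gene, as the share of all tested genes with it was not counted. SREBF2 rose slightly, by a log2 fold change of 0.21 (SE 0.06, adjusted p = 0.0165, limma). This call was lost when normal replicate 2 (adjusted p = 0.0529) or either inflamed library (0.066 and 0.0734) was left out, and when the limma fit held the 2 groups alone (0.0521). INSIG1, both a brake on SREBP processing and itself an SREBP target, stood at 7.81 and 6.91 FPKM in normal hIECs and at 11.5 and 10.8 FPKM in inflamed hIECs. Its groups did not overlap, with a log2 fold change of 0.54 (SE 0.07, adjusted p = 0.000489, limma). STARD4, a soluble carrier that moves sterol between membranes, went from 9.38 and 8.03 FPKM to 15.1 and 13.6 FPKM, a rise of 0.66 (SE 0.08, adjusted p = 0.000416, limma). SREBF1 did not follow. It stood at 3.80 and 3.61 FPKM in normal hIECs and at 3.03 and 3.32 FPKM in inflamed hIECs, a log2 fold change of -0.17 (SE 0.08, adjusted p = 0.106, limma) that was not called.

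At the entry of the cholesterol arm, ACAT2, the cytosolic thiolase that joins a pair of acetyl-CoA molecules, stood at 6.27 and 5.10 FPKM in normal hIECs and at 11.1 and 11.02 FPKM in inflamed hIECs. Its rise of 0.86 (SE 0.09, adjusted p = 0.000184, limma) was the largest among the 30 genes. HMGCS1, which makes HMG-CoA, went from 17.4 and 16.4 FPKM to 25.8 and 24.6 FPKM, a rise of 0.55 (SE 0.07, adjusted p = 0.000508, limma). The 3 enzymes that take mevalonate to isopentenyl diphosphate stood apart from this. MVK and PMVK, which phosphorylate mevalonate, and the decarboxylase MVD had log2 fold changes of 0.04, -0.14 and -0.12, and none was called. The steps after them rose again. IDI1, the isopentenyl diphosphate isomerase, had a log2 fold change of 0.65 with a wide SE of 0.22 (adjusted p = 0.0372, limma), as its replicates lay at 16.7 and 10.4 FPKM in normal and at 25.2 and 18.003 FPKM in inflamed hIECs. FDPS rose by 0.43 (SE 0.05), FDFT1 by 0.44 (SE 0.05) and SQLE, the squalene epoxidase, by 0.35 (SE 0.07).

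Beyond squalene the response was mixed. LSS, which closes the ring to lanosterol, stayed at 11.8 to 12.6 FPKM in the 4 libraries (log2 fold change 0.06, SE 0.06, not called). CYP51A1, the lanosterol demethylase, rose by 0.63 (SE 0.06, adjusted p = 0.000109, limma). MSMO1, the oxidase that starts the removal of the next methyl groups, stood at 22.6 and 18.8 FPKM in normal hIECs and at 34.8 and 34.9 FPKM in inflamed hIECs. Its groups were well apart, with a rise of 0.73 (SE 0.08, adjusted p = 0.000217, limma). SC5D, a sterol desaturase, rose by 0.65 (SE 0.16), and DHCR7, a reductase at the end of the pathway, by 0.38 (SE 0.06). The calls of IDI1 and SC5D were lost without normal replicate 2 or inflamed replicate 1, and that of IDI1 also without either inflamed library with PM10. NSDHL, HSD17B7 and the sterol isomerase EBP had log2 fold changes of 0.22, 0.19 and -0.01 and were not called, although NSDHL lay just past the threshold (adjusted p = 0.051, limma) and was called without normal replicate 1, with the 5 FPKM filter, with the replicate block and under all 3 other scalings (median centring, quantile normalization and the common sum). HSD17B7 was called without inflamed replicate 2.

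TM7SF2 went the other way. It encodes a sterol reductase that acts directly after CYP51A1. TM7SF2 stood at 9.82 and 8.47 FPKM in normal hIECs and at 2.25 and 3.11 FPKM in inflamed hIECs. Both inflamed libraries were below every library without cytokines, and TM7SF2 fell by 1.47 on the log2 scale (SE 0.16, adjusted p = 0.000224, limma), so that the mean of FPKM + 1 was 2.77 times higher in normal hIECs. Only 0.53% of its exon bases are shared with another gene, VPS51. LBR, which encodes the other enzyme known for this reduction and was looked up after these values were seen, was expressed in every library at 13.2 to 17.2 FPKM. The log2 fold change of LBR was 0.11 (SE 0.09, adjusted p = 0.31, limma) and was not called.

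In the fatty acid arm, the rise was carried by the desaturases. SCD, which places the first double bond in saturated chains, stood at 7.94 and 7.71 FPKM in normal hIECs and at 13.3 and 14.01 FPKM in inflamed hIECs, a rise of 0.73 (SE 0.06, adjusted p = 4.43e-05, limma). FADS1 and FADS2, neighbours on chromosome 11, encode the front-end desaturases that make arachidonic acid and other polyunsaturated fatty acids. FADS1 went from 6.75 and 5.79 FPKM to 11.3 and 11.1 FPKM, a rise of 0.75 (SE 0.08, adjusted p = 0.000132, limma). FADS2 went from 17.6 and 13.8 FPKM to 26.2 and 24.7 FPKM, a rise of 0.67 (SE 0.11, adjusted p = 0.00133, limma). The enzymes that build the chain itself did not rise with them. ACACA, FASN (fatty acid synthase) and ELOVL6, an elongase of saturated chains, had log2 fold changes of -0.22, -0.11 and 0.08, and none was called. ACACA was called lower without normal replicate 1. The 2 sources of acetyl-CoA moved in opposite directions. ACLY rose by 0.30 (SE 0.07, adjusted p = 0.00683, limma), whereas ACSS2, which makes acetyl-CoA from acetate, fell by 0.53 (SE 0.06, adjusted p = 0.000318, limma), from 11.5 and 10.5 FPKM to 7.32 FPKM in both inflamed libraries.

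**Figure D2:**
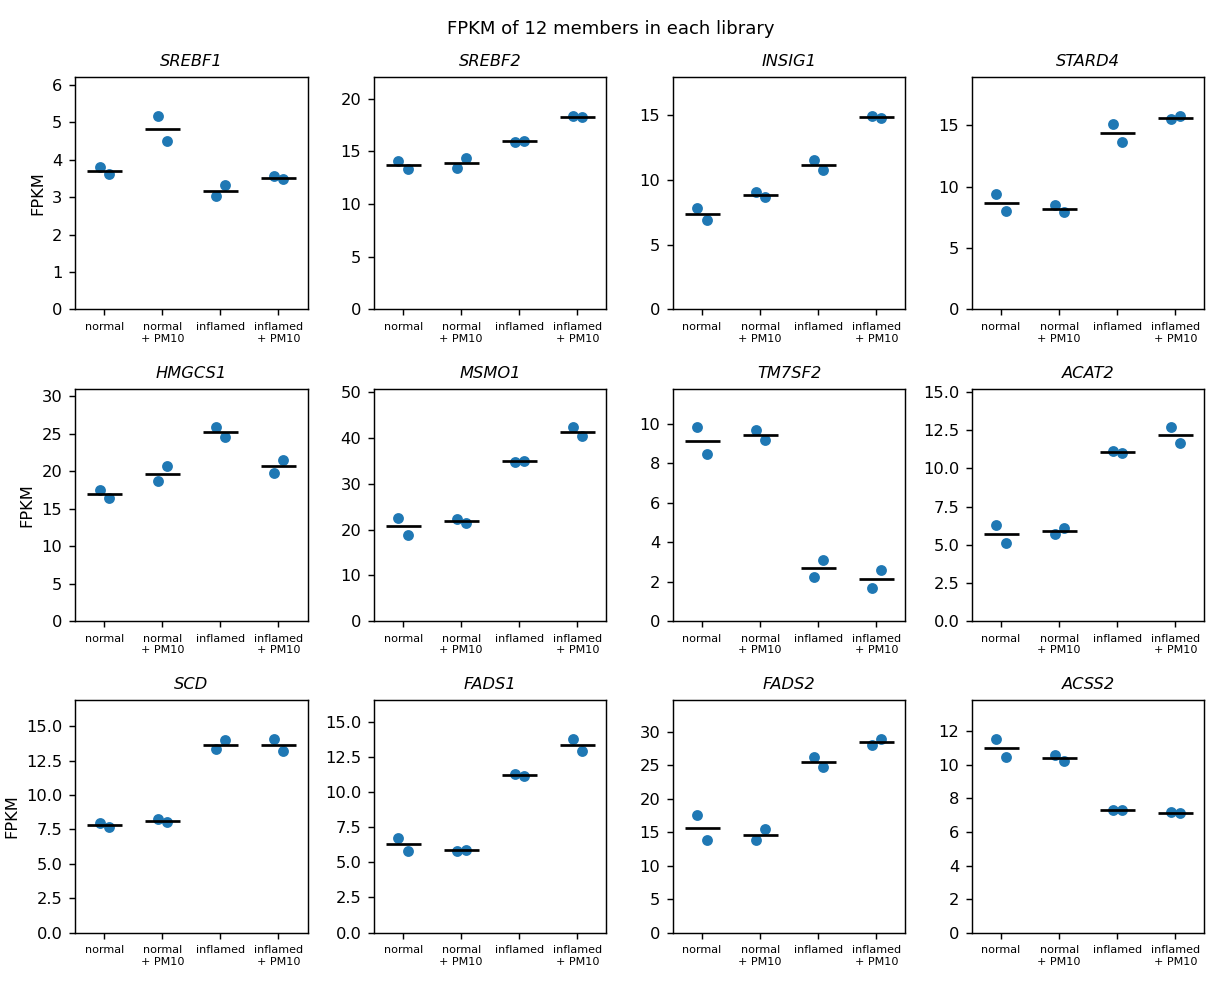
FPKM of 12 of the genes (y axis, from 0) in the 4 groups (x axis), with 1 point per library and a line at the mean of each group. The points with cytokines lie above those without in SREBF2, INSIG1, STARD4, MSMO1, ACAT2, SCD, FADS1 and FADS2. They lie below them in TM7SF2, ACSS2 and, narrowly, SREBF1. HMGCS1 peaks in inflamed hIECs without PM10.

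Other measures moved with the cytokines. All 14 proliferation markers rose in inflamed hIECs, with a median log2 fold change of 0.81 and sums of 185 and 194 FPKM in normal against 337 and 342 FPKM in inflamed hIECs. The intestinal epithelial markers summed to 643 and 653 FPKM in normal and to 352 and 357 FPKM in inflamed hIECs, nearly all of it KRT8 and KRT18. Of the 4 that were tested, 2 fell and 1 rose. LGR5, another of the 4, went from 2.63 and 2.01 FPKM to 5.68 and 5.26 FPKM. Neuronal markers summed to 199 and 209 FPKM in normal and to 121 and 121 FPKM in inflamed hIECs, and mesenchymal markers to 5010 and 5028 FPKM against 5664 and 5731 FPKM. Of the 5 tested neuronal markers, 3 fell and 1 rose. Of the 10 mesenchymal markers, 4 rose and 4 fell, with a median log2 fold change of -0.02, so the higher sum was not shared by all of them. The part of these shifts in the changes of the sterol and fatty acid genes was not tested.

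To see whether the genes share promoter letters, the window from 250 bases before to 50 bases after the start site was taken from RefSeq (GRCh38.p14) and searched on both strands. A window was found for 26 of the 30 genes and not for ACAT2, FASN, FDFT1 and SQLE. Only the first listed window of each gene was used. Some windows, such as those of IDI1, ACSS2 and FADS2, do not hold the gene start of the GENCODE annotation. The matches below depend on this choice of start site. The pentamer CCAAT, the letters bound by NF-Y, a factor known to act together with SREBPs, was present in 18 of the 26 windows (69.2%) and in 35.7% of all 27305 promoters. It was found in 10 of 14 windows of genes called higher with cytokines, in 6 of 10 not called and in 2 of 2 called lower. GGGCGG, the letters bound by SP1, was present in 24 of the 26 windows and in 44.6% of all promoters. TCACNCCAC, letters of a sterol regulatory element, was present in 1 of the 26 windows, that of SREBF2, and in 1.15% of all promoters. These are matches of letters in a short window and not measured sites. The 27305 promoters were not limited to the 14206 genes tested, whereas all 30 genes were expressed. The shares thus set expressed genes beside a wider set. The 250 bases before the start site are shown for the regulators SREBF2 and INSIG1. They are also shown for HMGCS1, the 1 gene whose PM10 response was called as different between normal and inflamed hIECs. MSMO1, the called gene with the most CCAAT matches, and TM7SF2, the gene that fell most, are shown too. Capitals mark CCAAT, which reads ATTGG where it lies on the other strand, and TCACNCCAC. SREBF2 held TCACCCCAC at position -133 from the start site and a CCAAT match at -106. MSMO1 held 4 CCAAT matches and HMGCS1 held 2.
SREBF2, chr22:41832855-41833104, plus strand: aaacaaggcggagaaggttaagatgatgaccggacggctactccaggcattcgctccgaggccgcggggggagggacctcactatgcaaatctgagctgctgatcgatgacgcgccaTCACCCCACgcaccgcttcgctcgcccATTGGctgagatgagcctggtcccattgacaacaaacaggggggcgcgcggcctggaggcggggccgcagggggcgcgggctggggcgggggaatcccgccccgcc
INSIG1, chr7:155297628-155297877, plus strand: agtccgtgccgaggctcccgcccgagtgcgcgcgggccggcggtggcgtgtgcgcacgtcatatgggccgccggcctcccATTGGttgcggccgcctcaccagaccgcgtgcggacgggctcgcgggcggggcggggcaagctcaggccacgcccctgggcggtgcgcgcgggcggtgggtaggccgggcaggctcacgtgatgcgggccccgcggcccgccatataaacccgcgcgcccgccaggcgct
HMGCS1, chr5:43313413-43313662, minus strand: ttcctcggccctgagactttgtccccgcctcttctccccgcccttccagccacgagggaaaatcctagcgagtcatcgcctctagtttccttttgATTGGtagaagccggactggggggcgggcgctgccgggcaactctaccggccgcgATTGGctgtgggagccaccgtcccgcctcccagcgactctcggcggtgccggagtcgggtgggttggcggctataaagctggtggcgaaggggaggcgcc
MSMO1, chr4:165327419-165327668, plus strand: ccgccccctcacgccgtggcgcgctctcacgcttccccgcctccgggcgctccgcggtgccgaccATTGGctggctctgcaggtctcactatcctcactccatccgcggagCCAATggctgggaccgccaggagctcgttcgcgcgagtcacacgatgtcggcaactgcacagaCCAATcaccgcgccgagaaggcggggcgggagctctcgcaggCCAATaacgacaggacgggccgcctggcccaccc
TM7SF2, chr11:65111622-65111871, plus strand: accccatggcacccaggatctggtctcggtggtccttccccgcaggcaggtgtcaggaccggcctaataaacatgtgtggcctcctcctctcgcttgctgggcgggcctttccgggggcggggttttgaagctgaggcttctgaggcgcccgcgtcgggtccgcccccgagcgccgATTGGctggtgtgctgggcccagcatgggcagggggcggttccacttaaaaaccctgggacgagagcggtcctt

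The cytokine effect was also measured in the presence of PM10, between the 4 libraries that the comparison above did not use other than for the shared spread. When inflamed and normal hIECs were compared with PM10 in both, 16 genes rose, 7 fell and 7 were not called, beside 25.8% of all tested genes called higher and 39.6% called lower. The median log2 fold change of the 30 genes was 0.40 against -0.11 over all genes. All 16 genes that rose here were among the 17 that rose without PM10, and TM7SF2 and ACSS2 fell in both comparisons. Under quantile normalization the split was 16 higher to 4 lower. FADS1 showed the largest rise, from 5.79 and 5.90 FPKM in normal hIECs with PM10 to 13.8 and 12.9 FPKM in inflamed hIECs with PM10, a log2 fold change of 1.07 (SE 0.08, adjusted p = 1.57e-05, limma). ACAT2 rose by 0.93 (SE 0.09), from 5.70 and 6.11 FPKM to 12.7 and 11.6 FPKM. FADS2 rose by 0.92 (SE 0.11), from 13.8 and 15.4 FPKM to 27.99 and 28.9 FPKM. In none of these 3 genes, which were chosen by their call, did the groups overlap. MSMO1 rose by 0.89 (SE 0.08), from 22.3 and 21.5 FPKM to 42.3 and 40.4 FPKM. TM7SF2 fell by 1.75 (SE 0.16, adjusted p = 6.82e-05, limma), from 9.68 and 9.16 FPKM to 1.66 and 2.60 FPKM.

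Of the regulators, SREBF1 fell and SREBF2 and INSIG1 rose in this comparison. SREBF1 stood at 5.17 and 4.49 FPKM in normal hIECs with PM10 and at 3.56 and 3.48 FPKM in inflamed hIECs with PM10, and it fell by 0.36 (SE 0.08, adjusted p = 0.0056, limma). SREBF2 went from 13.4 and 14.4 FPKM to 18.4 and 18.2 FPKM, a rise of 0.38 (SE 0.06, adjusted p = 0.00077, limma). INSIG1 went from 9.03 and 8.65 FPKM to 14.9 and 14.7 FPKM, a rise of 0.68 (SE 0.07, adjusted p = 0.000109, limma). STARD4 went from 8.47 and 7.90 FPKM to 15.5 and 15.8 FPKM, a rise of 0.86 (SE 0.08, adjusted p = 8.61e-05, limma). In SREBF2, INSIG1 and STARD4, both inflamed libraries with PM10 were above both normal libraries with PM10, which adds little for genes that were called. The other genes that fell were PMVK (by 0.22), MVD (by 0.23), EBP (by 0.31) and FASN (by 0.23), all by less than TM7SF2 and ACSS2. PMVK and MVD lost their calls under median centring and the common sum, and all 4 were lost together without replicate 2 of normal hIECs with PM10 or replicate 1 of inflamed hIECs with PM10. HMGCS1 was not called here, with a log2 fold change of 0.07 (SE 0.07, adjusted p = 0.431, limma). All 14 proliferation markers again rose, with a median log2 fold change of 1.29, and their part in these changes was not tested.

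**Figure D3:**
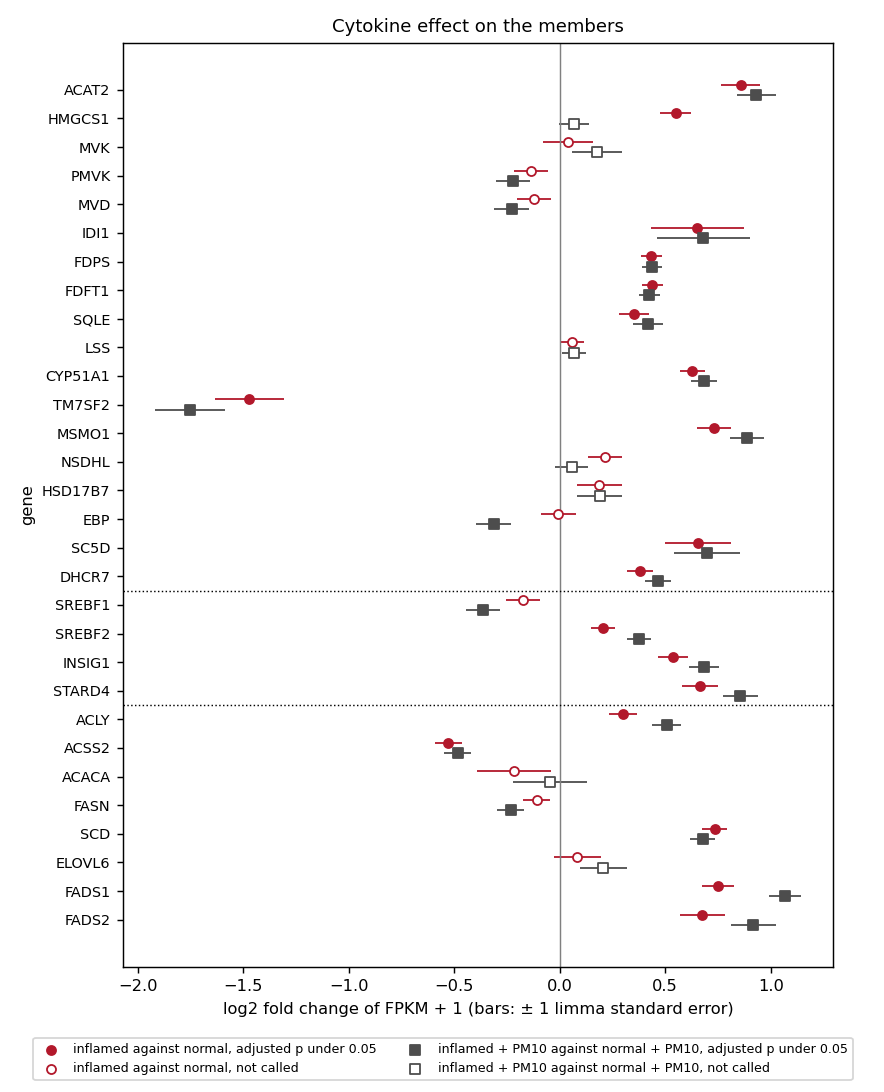
Log2 fold change of FPKM + 1 (x axis, bars ± 1 limma standard error) of the 30 genes (y axis, in pathway order) in inflamed against normal hIECs, without PM10 (red circles) and with PM10 (grey squares), with filled symbols for genes called by limma. The pairs of symbols lie close together for most genes, and the largest gap is at HMGCS1, at 0.55 without and 0.07 with PM10.

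PM10 alone left the pathway without a call. In normal hIECs with PM10 against normal hIECs, 0 of the 30 genes were called by limma, beside 5.51% of all tested genes called higher and 3.72% called lower, and 3 genes had an unadjusted p under 0.05. These normal libraries are the same as in the first cytokine comparison. The median log2 fold change of the 30 genes was 0.05, against 0.06 over all genes, and the largest was 0.31. The 3 genes were SREBF1, INSIG1 and HMGCS1, named here after their values were seen. SREBF1 had a log2 fold change of 0.31 (SE 0.08, adjusted p = 0.0579, limma), with both PM10 libraries, at 5.17 and 4.49 FPKM, above the normal ones. INSIG1 had a log2 fold change of 0.24 (SE 0.07, adjusted p = 0.076, limma), and HMGCS1 one of 0.20 (SE 0.07, adjusted p = 0.113, limma). Without normal replicate 1, 4 genes were called, with INSIG1, MSMO1 and NSDHL higher and ACACA lower. With libraries scaled to a common sum outside mitochondrial DNA, SREBF1 and INSIG1 were called higher. In the same comparison 11 of the 14 proliferation markers fell and none rose, and their part in these values was not tested.

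PM10 in inflamed hIECs moved 3 of the 30 genes. INSIG1 and ACLY rose and HMGCS1 fell, beside 6.22% of all tested genes called higher and 9.02% called lower, and 2 of 30 higher and 1 of 30 lower are shares close to or under that background. The inflamed libraries without PM10 are those of the first cytokine comparison, and those with PM10 are those of the second. INSIG1 went from 11.5 and 10.8 FPKM in inflamed hIECs to 14.9 and 14.7 FPKM with PM10, a rise of 0.38 (SE 0.07, adjusted p = 0.0135, limma). ACLY went from 36.9 and 35.5 FPKM to 45.1 and 42.8 FPKM, a rise of 0.27 (SE 0.07, adjusted p = 0.035, limma). HMGCS1 went from 25.8 and 24.6 FPKM to 19.8 and 21.5 FPKM, and it fell by 0.28 (SE 0.07, adjusted p = 0.0436, limma). In each of the 3 the libraries of the groups did not overlap, which adds little for genes chosen by their call. Each call was lost when an inflamed library or an inflamed library with PM10 was left out, and those of ACLY and HMGCS1 also when a normal library with PM10 was left out, leaving 1 call. With either one of the normal libraries left out, 7 genes were called, with SREBF2, MSMO1 and FADS1 higher and EBP lower in addition. SREBF2, at 15.9 and 15.99 FPKM without and 18.4 and 18.2 FPKM with PM10, missed the threshold (log2 fold change 0.19, SE 0.06, adjusted p = 0.0645, limma). STARD4 and SREBF1 had log2 fold changes of 0.11 and 0.12 and were not called. Of the proliferation markers, 2 of 14 fell and none rose.

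The PM10 response was then compared between normal and inflamed hIECs by the interaction of PM10 and cytokines, which uses all 8 libraries. HMGCS1 was the 1 gene of the 30 that was called, with an interaction of -0.48 on the log2 scale (SE 0.10, adjusted p = 0.0379, limma), beside 2.11% of all tested genes called higher and 4.48% called lower. In normal hIECs its level was 17.4 and 16.4 FPKM without and 18.6 and 20.7 FPKM with PM10, while in inflamed hIECs it was 25.8 and 24.6 FPKM without and 19.8 and 21.5 FPKM with PM10. The 2 PM10 groups thus overlapped each other and lay between the normal and the inflamed libraries. The call was lost when any library other than normal replicate 1 was left out, with 0 of the 30 genes called in 6 of these fits and FADS1 in place of HMGCS1 without normal replicate 2. FADS1 had an interaction of 0.32 (SE 0.11, adjusted p = 0.128, limma) in all 8 libraries.

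**Figure D4:**
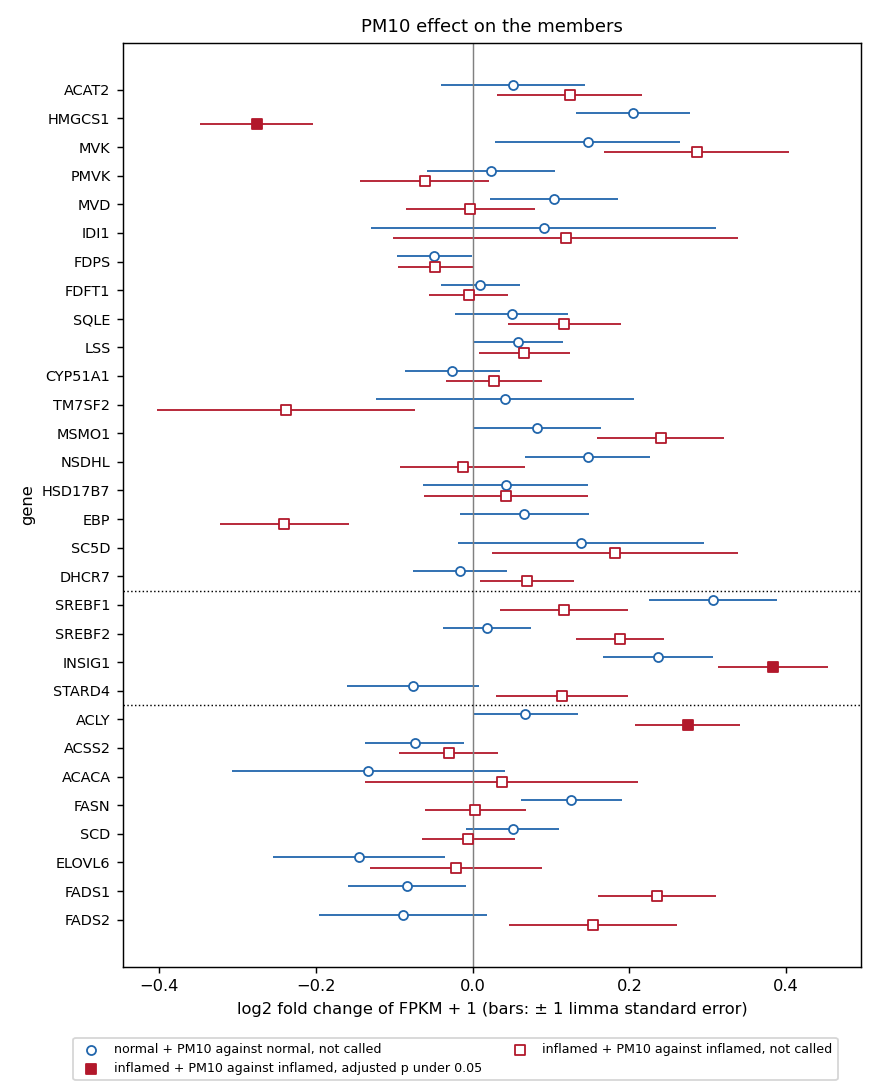
Log2 fold change of FPKM + 1 with PM10 (x axis, bars ± 1 limma standard error) of the 30 genes (y axis, in pathway order) in normal hIECs (blue circles) and inflamed hIECs (red squares), with filled symbols for genes called by limma. The largest change is 0.38, for INSIG1 in inflamed hIECs, and HMGCS1 lies to the right of the line at no change in normal and to the left in inflamed hIECs.

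The neighbouring steps of lipid metabolism were counted in 7 lists drawn up by function. In inflamed against normal hIECs, 32 of their 91 tested genes rose (35.2%) and 25 fell (27.5%), beside 25.9% and 30.3% of all tested genes. This total includes the oxysterol list below, where some genes passed the filter through 1 side of the comparison only, which favours a call. The total is thus not a result about the lists. Of 9 genes of sterol sensing and SREBP processing, 5 rose and 2 fell. MBTPS2, a protease that cleaves SREBPs, rose by 0.30 (SE 0.10), and SCAP itself fell by 0.42 (SE 0.06, adjusted p = 0.000599, limma). Of 12 genes of the isoprenoid branch, 5 rose and 3 fell. DHDDS, which makes dolichol precursors, rose by 0.57 (SE 0.07), COQ2 of ubiquinone synthesis by 0.44 (SE 0.08), and FNTB, a subunit of farnesyltransferase, fell by 0.43 (SE 0.06). Of 14 tested genes of sterol transport, esterification and efflux, 2 rose and 4 fell, close to or under the shares of all tested genes. SOAT1, which esterifies cholesterol, rose by 0.64 (SE 0.07), the sterol transporter GRAMD1A fell by 0.77 (SE 0.06), and MYLIP, a ubiquitin ligase that marks lipoprotein receptors for degradation, fell by 0.75 (SE 0.09). The medians of these 3 lists were 0.21, 0.05 and 0.03, against -0.03 over all genes.

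Of the 7 tested oxysterol genes, 4 rose and 2 fell, beside 25.9% and 30.3% of all tested genes. CH25H, CYP7B1 and GPR183 reached 1 FPKM only in libraries with cytokines, and CYP46A1 and HSD3B7 only in libraries without them. Passing the filter through 1 side of the comparison favours a call in that direction, so these counts are not a result about the list. CH25H, an interferon-induced hydroxylase of cholesterol, was listed at 0 in all 4 libraries without cytokines and stood at 1.64 and 1.48 FPKM in inflamed hIECs and at 1.35 and 1.08 FPKM in inflamed hIECs with PM10. CYP7B1, which acts on oxysterols, went from 0.30 and 0.28 FPKM in normal to 1.59 and 1.68 FPKM in inflamed hIECs, a rise of 1.03 (SE 0.09, adjusted p = 6.19e-05, limma). CYP46A1, a cholesterol hydroxylase known from neurons, stood at 0.78 and 1.54 FPKM in normal hIECs and was listed at 0 in all 4 libraries with cytokines. CH25H, CYP7B1 and CYP46A1 stayed under 3 FPKM in every library.

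Of 18 tested genes of other fatty acid synthesis and elongation, 8 rose and 4 fell. ACSL4 and ACSL3, which activate fatty acids to their CoA esters, rose by 0.91 (SE 0.07) and 0.82 (SE 0.10), and TECR, the reductase of the elongation cycle, fell by 0.80 (SE 0.06). The elongase ELOVL1 went from 29.5 and 26.9 FPKM in normal to 42.1 and 44.1 FPKM in inflamed hIECs. Of 20 tested genes of fatty acid oxidation, 4 rose and 4 fell, both shares under those of all tested genes. CPT1A, the carnitine transferase that admits fatty acids to mitochondria, rose by 0.92 (SE 0.07), while the isomerase ECI1 fell by 0.68 (SE 0.11). Of 11 tested genes of triglycerides and lipid droplets, 4 rose and 6 fell. LPIN3, a phosphatidate phosphatase, rose by 1.14 (SE 0.11) and MGLL, the monoglyceride lipase, by 1.09 (SE 0.08), while DGAT1, which completes triglycerides, fell by 1.00 (SE 0.07). Fatty acid oxidation and the lipid droplet list had medians of 0.02 and -0.18.

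**Figure D5:**
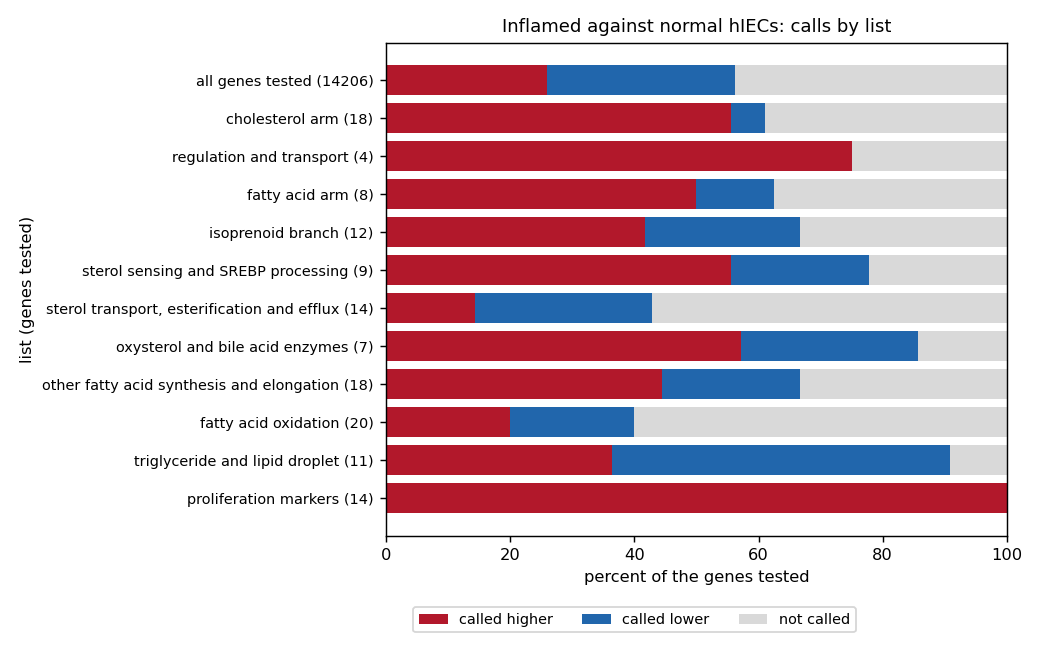
Percent of the tested genes of each list (y axis, number of genes in parentheses) called higher (red), called lower (blue) or not called (grey) by limma in inflamed against normal hIECs. The 3 arms of the pathway, with 10 of 18, 3 of 4 and 4 of 8 genes higher, show a larger red share than all genes tested, and the triglyceride and lipid droplet list shows the largest blue share. The related lists other than sterol transport and fatty acid oxidation also show a larger red share, such as 5 of 9 for sterol sensing. All 14 proliferation markers are red.

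The libraries were made without strand information, so reads of overlapping genes cannot be told apart. In GENCODE release 44, 17 of the 30 genes share exon bases with another gene, 6 of them over more than 10% of their exon bases. ACAT2 shares 22.2%, mainly with TCP1 on the other strand, which stood at 63.2 to 83.4 FPKM, far above ACAT2. TCP1 had a log2 fold change of 0.19 (SE 0.07, adjusted p = 0.053, limma) in inflamed against normal hIECs, from 73.8 and 63.2 FPKM to 79.6 and 76.7 FPKM. With PM10 in both groups TCP1 was called higher, by 0.20 (SE 0.07, adjusted p = 0.0403, limma). ACAT2 went from 6.27 and 5.10 FPKM to 11.1 and 11.02 FPKM without PM10, and the part of TCP1 reads in this rise was not tested. CYP51A1 shares 74.1%, mainly with readthrough genes, of which the one that was measured was listed at 0. HMGCS1 shares 37.7% with a long noncoding RNA whose mean level was 0.336 FPKM. Of 15 named pseudogenes of the 30 genes, 14 were listed at 0 in all libraries and the other reached 0.80 FPKM. For a single gene with 2 libraries in each group, the smallest p-value of an exact permutation test (two-sided) is 0.333, so every call rests on the spread that limma shares across genes. Groups that do not overlap are thus no separate evidence for a called gene. The share of all tested genes without overlap was not counted.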

How the data were processed

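RNA-seq was analysed for 8 libraries of H9-derived 2D hIECs, 2 in each of 4 groups set by the sample labels. The authors selected poly-A RNA and made libraries that do not keep the strand. Their processing used Cutadapt and Sickle for adapters and low-quality bases, HISAT2 for alignment to GRCh38 and StringTie for expression. The annotation release is not given in the sources used here. The values the authors deposited are FPKM, 1 per gene and library. FPKM keeps no read counts, so no count test was run.

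Values were compared as log2(FPKM + 1), which understates changes of weakly expressed genes. limma 3.58.1 (R 4.3.3), with a variance trend, was fitted to the 8 libraries together. A gene needed 1 FPKM or more in 2 or more libraries, which 14206 genes had. Each of the 5 comparisons was adjusted on its own (Benjamini-Hochberg), with 0.05 as the threshold. The fit was tested on simulated data. Members and lists were chosen with earlier results of these data known. Values in every library are given for the 4 regulation and transport genes and for up to 6 called genes with the largest change per comparison, and up to 3 called genes are named per related list. Some genes that this rule would name are not reported here. Positions came from GENCODE release 44 and promoters from RefSeq (GRCh38.p14). Replicate numbers did not pair the samples. Alternatives covered the pseudocount, filters, scaling, the trend, the groups in the fit, the replicate number and each library left out. Python 3.11.15, pandas 2.3.3 and matplotlib 3.10.9 made the tables and plots.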

Additional observations from a re-analysis of the deposited data

Results flagged for a closer look

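The PM10 response was called as different between normal and inflamed hIECs by the interaction term in limma with Benjamini-Hochberg adjustment. This held for 1 of the 30 genes and for 5 of the 91 tested genes of the 7 related lipid lists (5.49%), beside 6.6% of all tested genes. Both shares are under that of all tested genes, so the counts are not a result about the pathway or the lists. The 5 related genes were not followed over the alternatives. HMGCS1 had an interaction of -0.48 (SE 0.10, adjusted p = 0.0379), as described above.

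PLIN2, which coats lipid droplets, stood at 20.5 and 19.9 FPKM in normal hIECs and at 28.5 and 28.5 FPKM with PM10, but at 26.8 and 26.1 FPKM in inflamed hIECs and at 24.2 and 24.2 FPKM with PM10. Its interaction was -0.60 (SE 0.07, adjusted p = 0.00408, limma). MGLL, the monoglyceride lipase, stood at 1.29 and 1.26 FPKM in normal hIECs and at 0.76 and 0.90 FPKM with PM10, against 3.75 and 3.93 FPKM in inflamed hIECs and 6.15 and 6.64 FPKM with PM10. Its interaction was 0.93 (SE 0.11, adjusted p = 0.00619, limma). The PM10 libraries of PLIN2 and MGLL thus lay on opposite sides of their controls in normal and inflamed hIECs.

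MYLIP went from 4.98 and 4.53 FPKM to 9.80 and 10.0 FPKM with PM10 in normal hIECs and from 2.69 and 2.16 FPKM to 3.40 and 3.24 FPKM in inflamed hIECs, with an interaction of -0.58 (SE 0.13, adjusted p = 0.0405, limma). LIPA, the lysosomal lipase that frees cholesterol from its esters, went from 20.3 and 19.6 FPKM to 19.0 and 17.95 FPKM in normal hIECs and from 21.5 and 20.8 FPKM to 26.0 and 25.5 FPKM in inflamed hIECs, with an interaction of 0.38 (SE 0.07, adjusted p = 0.0313, limma). SCD5, a second stearoyl-CoA desaturase, stood at 6.19 and 5.96 FPKM in normal hIECs and at 6.68 and 6.36 FPKM with PM10, against 4.57 and 4.57 FPKM in inflamed hIECs and 3.64 and 3.37 FPKM with PM10, with an interaction of -0.39 (SE 0.09, adjusted p = 0.0498, limma). Groups of 2 libraries are too small to look for single libraries that stand apart.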

How the results depend on the processing

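The number of the 30 genes called with cytokines was 19 without PM10 and 23 with PM10, and it stayed within 16 to 21 and 18 to 23 under every alternative run, with each library left out in turn among them. For PM10 in normal hIECs, 0 genes were called, against 2 with libraries scaled to a common sum outside mitochondrial DNA and 0 to 4 with 1 library left out, the 4 without normal replicate 1. For PM10 in inflamed hIECs, 3 genes were called, against 1 with no filter on low values, 1 with no variance trend, 6 under median centring (5 higher and 1 lower) and 0 to 7 with 1 library left out. With the common sum it was again 3, with 3 higher and 0 lower. For the interaction, 1 gene was called, against 0 with no filter on low values, 0 under quantile normalization, 0 with no variance trend and 0 to 1 with 1 library left out. Same-numbered libraries did not deviate together (correlations of -0.0015 to 0.0793). With the replicate block, the counts were 0, 20, 2, 23 and 0 for PM10 in normal hIECs, cytokines without PM10, PM10 in inflamed hIECs, cytokines with PM10 and the interaction. The cause of these changes was not tested. The called genes with the largest changes and the called regulators were followed over the alternatives. Of 394 such values, 356 kept their call, 38 lost it and 0 changed direction. Other genes with values given in every library, such as IDI1, were not among them. With cytokines, the only followed gene to lose its call was SREBF2, without PM10. The other lost calls were those of INSIG1, ACLY and HMGCS1 with PM10 in inflamed hIECs and of HMGCS1 in the interaction. Leaving out a library outside a comparison leaves its fold change as it was. So do the filters, the trend, the replicate block and the fit of 2 groups alone, so no direction could change under these. Fitted alone, the groups of PM10 in normal hIECs gave 23 called genes over all tested genes in place of 1311. If the lowest value above 0 is a mean depth of 1, an FPKM of 1 is a mean depth of 4.38 to 6.11. Changes of genes near that level are then coarse. With 2 libraries a group, small changes such as those with PM10 lie close to the spread between replicates.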

Other observations

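Of the 91 tested genes of the 7 related lipid lists, 3 were called with PM10 in normal hIECs (3.30%, beside 9.23% of all tested genes) and 16 in inflamed hIECs, 12 higher and 4 lower (17.6%, beside 15.2%). In normal hIECs, MYLIP rose by 0.92 (SE 0.09, adjusted p = 0.00282, limma), PLIN2 by 0.48 (SE 0.05, adjusted p = 0.00282, limma) and CPT1A by 0.27 (SE 0.07, adjusted p = 0.0475, limma), and none of the other genes of these lists was called. Among the 12 that rose in inflamed hIECs, GPR183, a receptor for oxysterols, had a rise of 0.64 (SE 0.09, adjusted p = 0.0049, limma), from 0.99 and 1.05 FPKM to 2.02 and 2.26 FPKM. FADS3, the third gene of the FADS cluster, went from 17.7 and 17.7 FPKM to 25.3 and 23.1 FPKM, a rise of 0.43 (SE 0.06, adjusted p = 0.0057, limma). None of the 20 tested genes of fatty acid oxidation was called with PM10 in inflamed hIECs.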
